A study of Mus musculus with 15 samples.

Results

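Cell division and DNA replication genes were described in ventricle RNA of mice in which human Celf1, an RNA-binding protein that regulates splicing and mRNA decay, was switched on in heart muscle cells. The genes were found by symbol alone, with no measured value used. They are the A, B, D and E type cyclins, the cyclin-dependent kinases (Cdk) from Cdk1 to Cdk7 and the Cdk inhibitors (Cdkn). Also taken were the Cdc, Mcm, Aurk, Plk, Bub, Cenp and Kif families, and Top2a, Rrm1, Rrm2, Pcna, Birc5 and Tyms. The F type cyclin Ccnf did not match and is no member. Cdkn1a and the Cdc42 family were left out. The table held 118 such genes among 16042. The symbols also take in genes with other work, such as the transport kinesins, the chaperone partner Cdc37 and the mitochondrial protein Aurkaip1. Among them 5 are older names, such as Cdc2a (now Cdk1) and Cdc45l (now Cdc45).

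The study compared 5 groups of 3 mice aged 20 to 22 weeks, killed at set times after doxycycline was put into the food at 2 g per kg. Mice of the strain MHCrtTA/TRECUGBP1 held 2 transgenes. The first made the doxycycline-dependent activator rtTA from the alpha-MHC promoter of heart muscle cells, and the second made human Celf1, the LYLQ isoform with a Flag tag, from a promoter that rtTA switches on. They ate the doxycycline food for 12 hours, 24 hours, 72 hours or 7 days. Control mice of the strain MHCrtTA had no Celf1 transgene and ate the same food for 72 hours, so the control and the induced mice had equal exposure to doxycycline at 72 hours alone. Food was removed 2 to 3 hours before the hearts were taken. The transgene is made in heart muscle cells, whereas the RNA came from all cells of the ventricle, after removal of the atria and a small piece of the apex. In bulk RNA of this kind, a change in the number of cells of a type and a change in the RNA of each cell cannot be told apart.

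Values are RPKM, reads per kilobase of gene model and per 1e6 mapped reads, as deposited by the authors, with an estimated 16.5 to 52.3 × 1e6 reads per column (median 26.8 × 1e6). Celf1, listed as Cugbp1, stood at 219.7 to 351 RPKM at 12 hours, 295 to 423 at 24 hours and 159 to 181 at 72 hours, against 33.3 to 36.1 in controls. In the mice labelled 7 days it stood at 29.5, 30.9 and 37.9 RPKM and did not pass against control (-0.07 ± 0.20, adjusted p = 0.771). The transgene therefore did not mark these libraries, and each direction at 7 days rests on their label. Human and mouse Celf1 reads are not separated in this table. The columns carry 9 codes of unexplained meaning. All 3 controls have the code of 1 induced mouse, A3278 of the 72 hour group, and no other induced mouse has it.

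Cells that divide copy their DNA once and then share it out. D type cyclins with Cdk4 and Cdk6 start the cycle, and E type cyclins with Cdk2 open S phase, in which Mcm helicases, the sliding clamp Pcna and the enzymes of nucleotide supply work. A and B type cyclins with Cdk1 then drive mitosis. Most heart muscle cells of adult mice have left the cycle, while fibroblasts, blood vessel cells and leukocytes of the heart can still divide.

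Of the 118 genes, 60 had all 3 mice labelled 7 days above all 3 controls, 50.8% of the set, where 27.5% of the 16042 genes of the table did. In the other direction 24 genes had all 3 below the controls, beside 26% of the table. Set against all 12 other mice, 36 genes stood higher in every mouse labelled 7 days (15.6% of the table did so) and 6 stood lower (8.98%). Not all followed one course: Rrm2, Mcm5, Mcm7, Cdc6 and Aurka had their highest group mean at 72 hours, and Cenpa and Cenpf had their lowest at 7 days.

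Earlier groups stood nearer to the table as a whole by the same measure. At 12 hours 5 of the 118 genes lay above the controls in all 3 mice (3.89% of the table) and 35 below (31.8%). At 24 hours 12 lay above (11.2%) and 25 below (24.7%). At 72 hours 19 lay above (13.1%) and 13 below (14.7%).

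The test covered the 80 members with a mean of at least 1 RPKM over the 15 mice. It was limma on log2(RPKM + 1), so that folds of low genes are understated, with p adjusted over the 10868 genes above the same limit. At 7 days against control 31 members were higher, beside 26.7% of the genes tested, and 15 were lower, beside 28.2%. The median log2 difference was 0.27 for the members tested and -0.03 for the genes tested. The limit lets in genes through the group in which they are high, and 7 of the 80 had a mean under 1 RPKM in the other 4 groups together. Without it, 48 of the 118 members were higher (22.5% of the genes) and 17 lower (19.7%). With the column code as a term 26 members passed, 22 of them higher and 4 lower, and that fit is tied to the controls by mouse A3278 alone. Over all 5 groups, 59 of the 80 members passed the F test of limma, where 71.3% of the genes tested did.

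**Figure D1:**
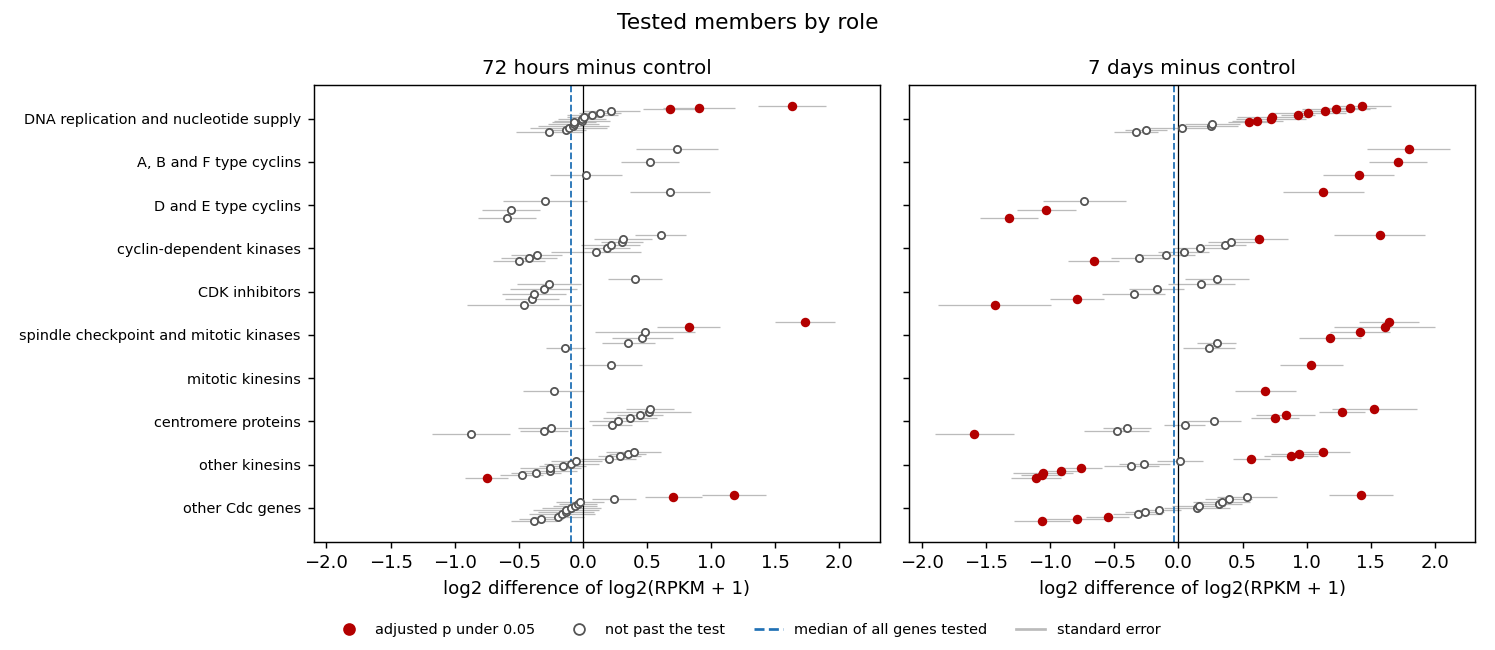
Log2 difference of log2(RPKM + 1) from control for the members tested, by role, at 72 hours (left) and 7 days (right). Of the 80 members tested Aurkaip1, which was lower at 7 days (-1.18 ± 0.27), is not drawn. The inhibitor row includes Cdkn2aip and Cdkn2aipnl, which match by symbol alone. Filled points passed at an adjusted p under 0.05, grey lines are the standard error of the limma fit and the dashed line is the median of the genes tested, at -0.10 and -0.03. At 7 days the filled points of DNA replication, A and B type cyclins and mitotic kinesins lie right of 0, and those of the D type cyclins left of it.

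Ccnb1, Ccnb2, Cdc2a and Ccna2 were higher at 7 days. Ccnb1, the B cyclin that activates Cdk1, stood at 3.1, 4.42 and 2.38 RPKM in the mice labelled 7 days, against 0.34, 0.13 and 0.41 RPKM in controls (1.71 ± 0.22, adjusted p = 7.52e-06; here and below, the log2 difference with its SE). Every mouse labelled 7 days lay above the other 12, whose highest was 1.2 RPKM at 72 hours. Its relative Ccnb2 stood at 3.73, 4.12 and 8.85 RPKM at 7 days, against 0.38, 0.47 and 1.81 RPKM in controls (1.80 ± 0.32, adjusted p = 0.000177). Mouse A3269 was the high one and the groups did not overlap. Cdc2a, the mitotic kinase itself, stood at 7.89, 6.73 and 3.27 RPKM at 7 days, against 1.22, 0.39 and 2.64 RPKM in controls (1.57 ± 0.35, adjusted p = 0.00122), again with the groups apart.

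Ccna2, the cyclin of S phase and early mitosis, stood at 4.59, 5.39 and 3.13 RPKM at 7 days, against 1.14, 0.34 and 1.77 RPKM in controls. It rose at 7 days (1.41 ± 0.28, adjusted p = 0.000443) with the groups apart. With the column code as a term it did not pass, at 1.18. Of the A and B type cyclins, Ccna2, Ccnb1 and Ccnb2 were tested. Ccnb1 reached the limit for the test through the mice labelled 7 days, as no other group had a mean above 0.87 RPKM. Ccnb3, a cyclin of germ cells, was at 0 in all mice but 1 control. At 12, 24 and 72 hours none of the 3 passed, with log2 differences of -0.14 to 0.73. A3280 was the highest control for Ccna2, Ccnb1, Ccnb2 and Cdc2a.

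**Figure D2:**
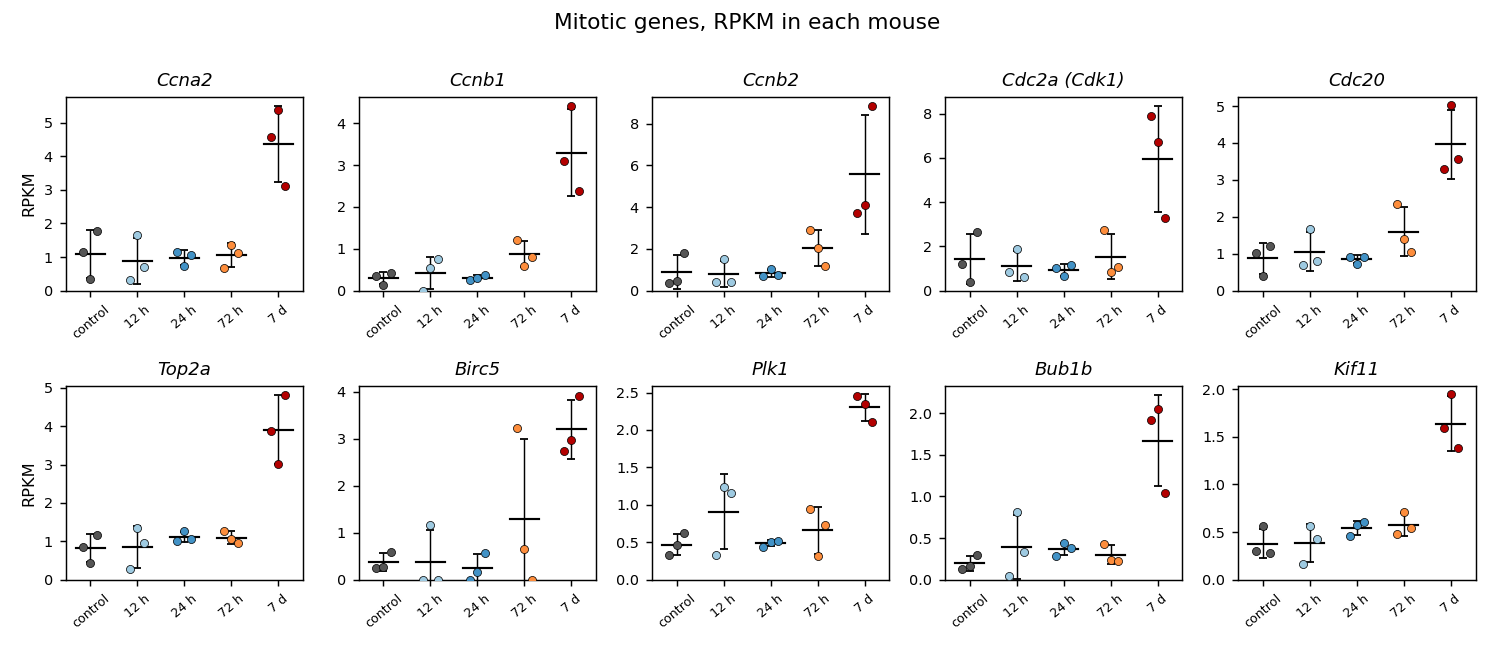
RPKM of 10 mitotic genes in each of the 15 mice, by group, with the mean (bar) and SD (whiskers) of 3 mice. For all 10 the 3 mice labelled 7 days lie above the 3 controls, for example at 2.1 to 2.45 against 0.33 to 0.62 RPKM for Plk1.

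Ccnd2, Ccnd3 and Cdk4 were lower at 7 days. Ccnd2, a D type cyclin, fell to 12.1, 9.72 and 10.6 RPKM in the mice labelled 7 days, against 29.2, 27.2 and 28.8 RPKM in controls (-1.32 ± 0.23, adjusted p = 0.000111), and each lay below all 12 other mice. Ccnd3 stood at 27, 20.1 and 17.9 RPKM at 7 days, against 40.8, 45.4 and 48.2 RPKM in controls (-1.03 ± 0.23, adjusted p = 0.00107). It was also low at 12 hours, at 24.2, 22.8 and 20.9 RPKM, and at 24 hours, at 22.7, 24.3 and 19.6 RPKM. Cdk4, the kinase both cyclins bind, was at 26.3, 23.2 and 19 RPKM at 7 days, against 31.5, 37.4 and 41 RPKM in controls (-0.66 ± 0.20, adjusted p = 0.00882). Ccnd1 was at 11, 11.6 and 9.35 RPKM at 7 days, against 16, 15.8 and 24.2 RPKM in controls, and did not pass (-0.73 ± 0.33, adjusted p = 0.0666). With the column code as a term Ccnd2, Ccnd3 and Cdk4 did not pass, at -0.68, -0.08 and 0.17 on the log2 scale.

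Ccne2, an E type cyclin, was higher, with 1.13, 2.01 and 5.79 RPKM at 7 days, against 0.48, 1 and 0.4 RPKM in controls (1.13 ± 0.32, adjusted p = 0.00594). Mouse A3269 was far above the other mice, and the call was lost with a GC correction and with the column code. Ccne1, below the limit for the test, had 2, 1.75 and 1.37 RPKM at 7 days and 1.44, 0.77 and 1.3 RPKM in controls, so the groups overlapped. Cdk6 was higher at 7 days (0.63 ± 0.23, adjusted p = 0.0284). It lost the call without control A3250 or A3259, without A3345 or A3283 of the 7 day group, with quantile scaling and with the column code.

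Cdk2, the partner of E type cyclins, did not pass at 7 days (0.17 ± 0.20, adjusted p = 0.503). It was lower in the 24 hour group, with 4.13, 3.5 and 2.84 RPKM at 24 hours, against 6.63, 6.52 and 5.52 RPKM in controls (-0.69 ± 0.20, adjusted p = 0.0305), a call kept under 4 of 13 alternatives. It was lost without the limit on low values, with either scaling and with the GC correction, and without any 1 of the 3 controls, A3277 or A3262. Cdk7, which activates other Cdk proteins, had 11.2, 13.4 and 16.7 RPKM at 72 hours, against 7.79, 9.09 and 8.89 RPKM in controls, with the groups apart but not past the test (0.61 ± 0.20, adjusted p = 0.0575). It passed with median-ratio scaling, with quantile scaling and without mouse A3278.

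Of the 6 inhibitor symbols tested, Cdkn1b and Cdkn1c were lower at 7 days, where 28.2% of all genes tested were. The 6 include Cdkn2aip and Cdkn2aipnl, which match by symbol alone and did not pass at 7 days. Cdkn1b (p27), which holds Cdk2 in check, stood at 17.4, 13.2 and 14.8 RPKM at 7 days, against 24.7, 29.1 and 26.8 RPKM in controls (-0.79 ± 0.21, adjusted p = 0.00422). Cdkn1c (p57), an imprinted inhibitor, stood at 3.15, 5.89 and 4.17 RPKM at 7 days, against 16.3, 14.3 and 10 RPKM in controls (-1.43 ± 0.44, adjusted p = 0.0115). The groups were apart for each gene. Both calls were lost with the column code, and that of Cdkn1c also with the GC correction. Cdkn2c (p18) and Cdkn2d (p19) did not pass at 7 days, at 0.30 ± 0.25, adjusted p = 0.317 and -0.35 ± 0.25, adjusted p = 0.244. Cdkn2c had 9.82, 9.21 and 8.91 RPKM at 7 days, against 7.66, 7.72 and 6.7 RPKM in controls, with the groups apart, and it passed as higher with the GC correction and, at 1.33, with the column code.

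Cdkn2b (p15), below the limit for the test, had 1.37, 0.68 and 2.3 RPKM at 72 hours and 0.23, 0.39 and 0.7 RPKM in controls, with overlapping groups. In the fit without the limit it was higher at 72 hours (0.72 ± 0.20, adjusted p = 0.0475 in limma). Cdkn1a (p21), an inhibitor and p53 target, is no member. It stood at 98.1, 59.9 and 59 RPKM at 72 hours and 59.7, 84.5 and 39.3 RPKM at 7 days, against 9.81, 9.25 and 11.3 RPKM in controls (2.68 ± 0.30, adjusted p = 3.56e-05 at 72 hours and 2.42 ± 0.30, adjusted p = 4.51e-06 at 7 days).

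**Figure D3:**
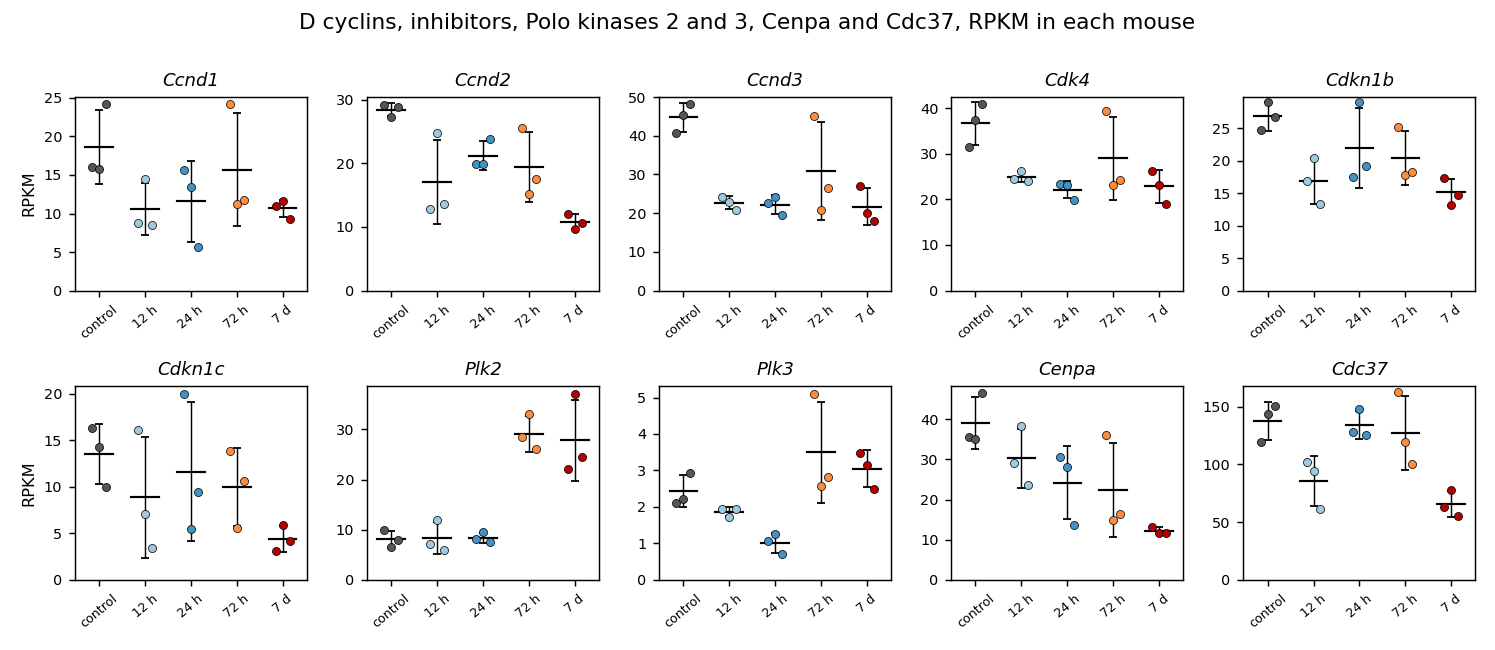
RPKM of the D type cyclins, Cdk4, 2 inhibitors, the Polo kinases Plk2 and Plk3, Cenpa and Cdc37 in each of the 15 mice, by group, with the mean (bar) and SD (whiskers) of 3 mice. For Ccnd2 the 3 mice labelled 7 days lie at 9.72 to 12.1 RPKM, below the controls at 27.2 to 29.2, and Plk2 stands above the controls at 72 hours and 7 days.

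Among the 18 genes of DNA replication and nucleotide supply, 15 were tested. At 7 days 10 were higher and none lower, at 72 hours 3 were higher, and at 24 hours Pcna was. Of all genes tested, 26.7% were higher and 28.2% lower at 7 days, 6.39% higher at 72 hours and 5.38% higher at 24 hours. Pcna, the clamp that holds the polymerase on DNA, stood at 48.2, 50.5 and 50.3 RPKM at 7 days, against 25.1, 25 and 26.5 RPKM in controls (0.94 ± 0.13, adjusted p = 1.88e-05). It was also higher at 24 hours, with 37.5, 38.7 and 40.9 RPKM (0.59 ± 0.13, adjusted p = 0.013), while at 72 hours its 25.5, 25.7 and 25.7 RPKM lay inside the control range. The 24 hour call was lost without control A3259, control A3280 or mouse A3262, while its log2 difference stayed between 0.55 and 0.80 under all 13 alternatives.

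The Mcm2 to Mcm7 proteins form the replicative helicase, and their genes did not all pass together. Mcm6 had 5.32, 4.8 and 4.07 RPKM at 7 days, against 1.59, 1.02 and 1.2 RPKM in controls (1.34 ± 0.20, adjusted p = 3.13e-05). Mcm4 had 4.66, 5.26 and 4.88 RPKM at 7 days, against 3.24, 2.57 and 2.82 RPKM in controls (0.62 ± 0.20, adjusted p = 0.015), and lost the call without control A3259. Mcm3 and Mcm5 were also higher at 7 days, at 0.72 ± 0.28, adjusted p = 0.035 and 0.73 ± 0.28, adjusted p = 0.0349. Both lost the call without control A3250 or A3259, and without A3345 or A3283 of the 7 day group. The pseudocount of 0.1 and the fit without the limit on low values also ended both calls. That of Mcm5 was lost with the first column of each mouse too.

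Mcm2 had 2.84, 3.05 and 1.35 RPKM at 7 days and 2.33, 1.74 and 2.8 RPKM in controls (0.02 ± 0.26, adjusted p = 0.946). Mcm7 had 5.43, 7.21 and 4.91 RPKM at 7 days and 4.52, 4.35 and 5.25 RPKM in controls (0.25 ± 0.21, adjusted p = 0.33). Neither passed, and the groups overlapped. Mcm7 passed as higher with the GC correction and, at 0.996, with the column code. At 72 hours Mcm5 (0.91 ± 0.28, adjusted p = 0.0446) and Mcm7 (0.68 ± 0.21, adjusted p = 0.0469) were the ones higher than in controls, while Mcm6 did not pass (0.07 ± 0.20, adjusted p = 0.835). Mouse A3278 was the highest, with 7.55 RPKM of Mcm5 and 11.1 RPKM of Mcm7, and both calls were lost on leaving out any 1 of the 6 mice compared. Mcm9, an Mcm relative outside that ring, was higher at 7 days (0.55 ± 0.16, adjusted p = 0.00839), and Mcm8 did not pass (-0.33 ± 0.17, adjusted p = 0.117).

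Ribonucleotide reductase makes deoxynucleotides and has a large and a small subunit, whose genes differed in time. Rrm2, the small subunit made in S phase, stood at 11, 9.31 and 8.6 RPKM at 72 hours, against 2.15, 2.28 and 2.84 RPKM in controls (1.63 ± 0.26, adjusted p = 0.00096). At 7 days it stood at 7.76, 11.1 and 3.83 RPKM (1.23 ± 0.26, adjusted p = 0.000868). Both groups lay above the controls. Rrm1, the large subunit, stood at 3.86, 4.42 and 4.45 RPKM at 72 hours, against 4.04, 4.72 and 4.03 RPKM in controls (-0.01 ± 0.19, adjusted p = 0.989). At 7 days Rrm1 stood at 11.3, 12.5 and 8.47 RPKM (1.15 ± 0.19, adjusted p = 7.17e-05), above all 12 other mice.

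Tyms, which makes thymidylate, had 4.66, 6.3 and 2.82 RPKM at 7 days, against 1.33, 1.9 and 1.86 RPKM in controls (1.01 ± 0.30, adjusted p = 0.0084), and lost the call without mouse A3283. At 72 hours mouse A3278 had 3.25 RPKM of Tyms beside 0.74 and 1.08 in the other mice. Top2a, the topoisomerase that untangles sister chromatids, had 3.88, 3.03 and 4.82 RPKM at 7 days, against 0.86, 0.44 and 1.16 RPKM in controls (1.43 ± 0.22, adjusted p = 4.44e-05), with the groups apart. Top2a reached the limit for the test through the mice labelled 7 days, as its mean over the other groups together was under 1 RPKM. Cdc45l, part of the active helicase, did not pass at 7 days (0.26 ± 0.21, adjusted p = 0.313). Cdc6, Cdc7 and Mcm10, which act at replication origins and were below the limit, had overlapping values at 7 days and in controls.

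**Figure D4:**
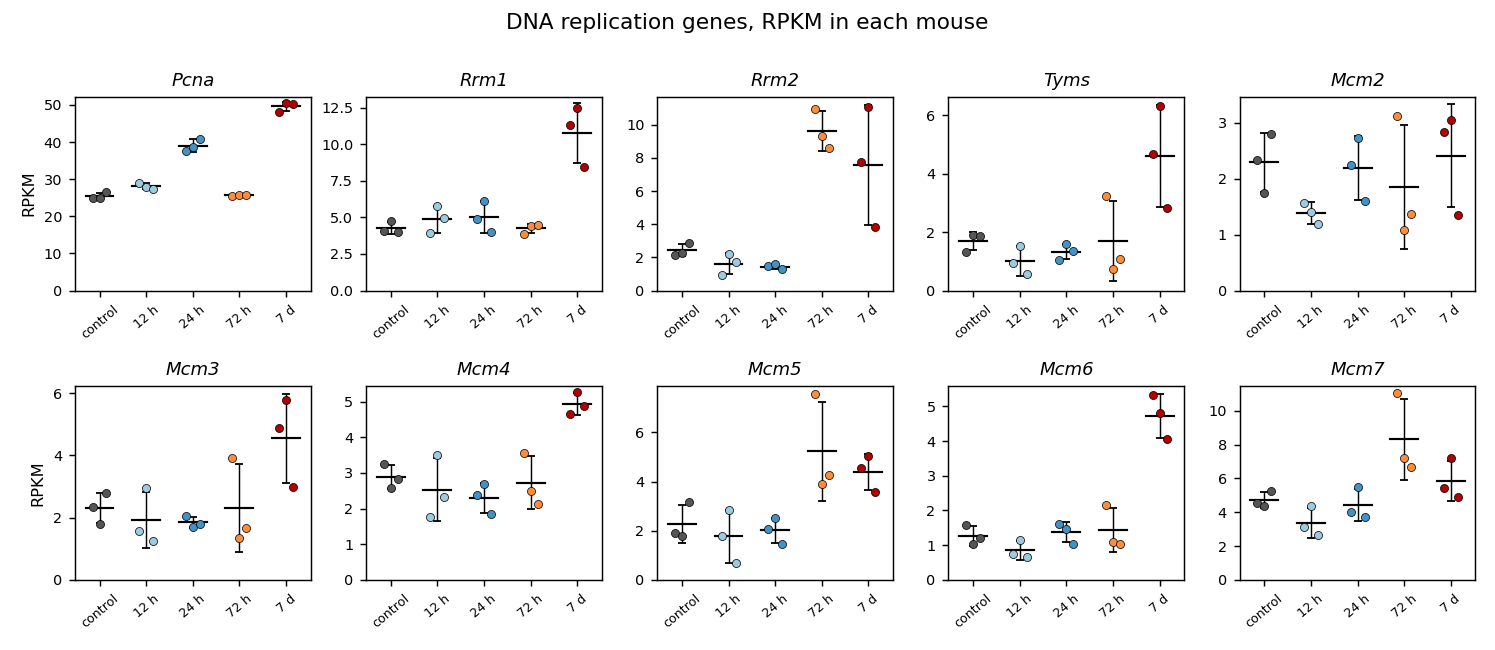
RPKM of 10 genes of DNA replication and nucleotide supply in each of the 15 mice, by group, with the mean (bar) and SD (whiskers) of 3 mice. Pcna is high at 24 hours and 7 days, Rrm2 at 72 hours and 7 days, and Rrm1 and Mcm6 at 7 days, while the groups of Mcm2 at 7 days and in controls overlap.

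Among the 12 spindle checkpoint genes and mitotic kinases, 6 were tested and 4 were higher at 7 days, beside 26.7% of all genes tested. Cdc20, the activator of the ligase that ends mitosis, had 3.3, 5.03 and 3.56 RPKM at 7 days, against 1.01, 0.4 and 1.21 RPKM in controls (1.42 ± 0.24, adjusted p = 8.63e-05). Birc5 (survivin), a partner of Aurora B, had 2.73, 2.97 and 3.91 RPKM at 7 days, against 0.25, 0.28 and 0.6 RPKM in controls (1.61 ± 0.39, adjusted p = 0.00232). Neither overlapped. At 72 hours mouse A3278 alone was high in Birc5, with 3.22 RPKM beside 0.67 and 0 in the other mice. Birc5 reached the limit for the test through the mice labelled 7 days, as its mean over the other groups together was under 1 RPKM. Bub3, a checkpoint protein, had 28.9, 27.7 and 34.1 RPKM at 7 days, against 23.4, 24.9 and 24.6 RPKM in controls, apart but not past the test (0.30 ± 0.15, adjusted p = 0.107), and it passed under 4 other settings, both scalings among them.

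Plk1, Bub1 and Bub1b were below the limit for the test. Plk1, the main mitotic Polo kinase, had 2.45, 2.35 and 2.1 RPKM at 7 days, against 0.33, 0.46 and 0.62 RPKM in controls. Bub1b (BubR1), a checkpoint kinase relative, had 1.92, 2.05 and 1.04 RPKM at 7 days, against 0.13, 0.16 and 0.3 RPKM in controls. Bub1, its partner, had 0.75, 1.15 and 0.71 RPKM at 7 days, against 0.21, 0.08 and 0.27 RPKM in controls. For all 3 the groups were apart, and in the fit without the limit they were higher at adjusted p of 0.000253 (Plk1), 0.00028 (Bub1b) and 0.000208 (Bub1). Aurkb, the kinase of the chromosomal passenger complex, had 2.23, 1.39 and 1.4 RPKM at 7 days and 0.45, 0.44 and 1.37 RPKM in controls, just apart. Aurka, a kinase of the spindle poles, had 1.53, 1.4 and 0.03 RPKM at 7 days and 0.2, 0.71 and 0.86 RPKM in controls, with mouse A3269 near 0. In the limma fit without the limit Aurkb (0.63 ± 0.28, adjusted p = 0.0859) and Aurka (0.24 ± 0.35, adjusted p = 0.635) did not pass.

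Plk2 and Plk4 were higher by 72 hours. Plk2, a Polo kinase known as a p53 target and for centriole duplication, stood at 28.4, 33 and 26 RPKM at 72 hours, against 9.87, 6.57 and 7.88 RPKM in controls (1.74 ± 0.24, adjusted p = 0.000167). At 7 days it stood at 22.1, 37.1 and 24.5 RPKM (1.65 ± 0.24, adjusted p = 1.85e-05), and at 12 and 24 hours between 5.99 and 12 RPKM. Both later groups lay above all controls. Plk4, the kinase that starts centriole duplication, had 1.45, 2.02 and 1.19 RPKM at 72 hours and 2.46, 3.51 and 1.17 RPKM at 7 days, against 0.3, 0.39 and 0.61 RPKM in controls.

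Plk4 passed at 72 hours (0.83 ± 0.24, adjusted p = 0.0365) and at 7 days (1.18 ± 0.24, adjusted p = 0.000618). It reached the limit for the test through the mice labelled 7 days, as its mean over the other groups together was under 1 RPKM. The 72 hour call was lost without any 1 of the 3 controls, A3281 or A3264, and both calls with the column code. Plk3, a stress-responsive Polo kinase, fell at 24 hours to 1.06, 1.26 and 0.71 RPKM, against 2.12, 2.23 and 2.94 RPKM in controls (-0.77 ± 0.21, adjusted p = 0.0222). It lost that call without control A3259, control A3280 or mouse A3262.

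Mitotic kinesins move chromosomes and build the spindle. Of the 10 listed, Kif22 and Kif20a were tested. Kif22, a chromosome-bound kinesin, had 2.61, 2.86 and 1.7 RPKM at 7 days, against 0.43, 0.36 and 1.24 RPKM in controls (1.04 ± 0.25, adjusted p = 0.00192). It reached the limit through the mice labelled 7 days, as no other group had a mean above 0.92 RPKM. Kif20a, needed for the last step of division, had 3.06, 4.97 and 2.2 RPKM at 7 days, against 1.53, 1.62 and 1.86 RPKM in controls (0.68 ± 0.24, adjusted p = 0.0235). The Kif20a call was lost without control A3250, control A3259 or mouse A3283, with quantile scaling and with the column code. Exons of Cdc23 on the other strand overlap 32.3% of the exon bases of Kif20a. Whether reads were counted by strand is not stated, so reads of the pair cannot be told apart.

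Of the 8 mitotic kinesins below the limit, Kif11, the motor that pushes the spindle poles apart, had 1.59, 1.95 and 1.38 RPKM at 7 days, against 0.3, 0.56 and 0.28 RPKM in controls. Kif2c, which takes microtubules apart at centromeres, had 1.82, 1.87 and 1.73 RPKM at 7 days, against 0.15, 0.17 and 0.12 RPKM in controls. Kif4, Kif15, Kif18a and Kif23 also had groups apart with 7 days higher, and Kif14 and Kif24 overlapped.

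The centromere genes split. Cenpa, the histone variant that marks the centromere, fell to 13.2, 11.7 and 11.7 RPKM at 7 days, against 35.5, 35.2 and 46.6 RPKM in controls (-1.59 ± 0.31, adjusted p = 0.00034). At 72 hours mouse A3278 had 36 RPKM beside 14.9 and 16.4 in the other mice. With the column code as a term the 7 day difference of Cenpa was -0.54 and did not pass. Cenpc1, which binds that histone, had 3.87, 5.12 and 5.49 RPKM at 7 days, against 1.6, 1.65 and 0.98 RPKM in controls (1.27 ± 0.18, adjusted p = 1.64e-05). Cenpq, of the complex built on it, had 4.63, 7.24 and 5.79 RPKM at 7 days, against 1.77, 1.81 and 0.68 RPKM in controls (1.53 ± 0.33, adjusted p = 0.000894), and did not pass with the column code.

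Of the 9 centromere genes tested, Cenpc1, Cenpo, Cenpq and Cenpt were higher at 7 days (26.7% of genes tested) and Cenpa was lower (28.2%). Among the 7 below the limit, Cenpe, a kinesin of the kinetochore, had 1.15, 1.4 and 1.93 RPKM at 7 days, against 0.14, 0.12 and 0.23 RPKM in controls. Cenph and Cenpi, of the same inner complex as Cenpq, were also apart, at 1 to 1.95 against 0 to 0.3 RPKM and 0.65 to 0.9 against 0.02 to 0.08 RPKM. Cenpf, made late in the cycle of dividing cells, had 0.84, 1.31 and 1.59 RPKM at 7 days and 2.66, 1.76 and 1.97 RPKM in controls. Its groups were apart with 7 days lower, and it did not pass (-0.48 ± 0.26, adjusted p = 0.121).

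Of all 38 members below the limit, 31 had their highest group mean at 7 days, beside 41.3% of the 5174 genes below it. In 20 all 3 mice labelled 7 days lay above the controls (17.1% of those genes) and in 3 below (8.23%). The summed RPKM of the 14 A and B type cyclins and mitotic kinesins was 25, 25.5 and 31.4 in the mice labelled 7 days, against 4.88, 5.81 and 9.95 in controls. At 72 hours the sum was 7.73, 8.54 and 10.4.

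The other kinesins and Cdc genes were grouped by symbol, and some of them, such as Kif2a, may also act in division. Among the 12 other kinesins tested 4 were higher at 7 days and 5 lower, where 26.7% and 28.2% of the genes tested were. Kif5b, the heavy chain of conventional kinesin, stood at 72.1, 95 and 94.4 RPKM at 7 days, against 44.3, 37.3 and 36.2 RPKM in controls (1.13 ± 0.21, adjusted p = 0.000307), a call lost with the column code. Kif3b, a motor of cilia and vesicles, stood at 7.57, 8.79 and 8.68 RPKM at 7 days, against 4.08, 3.88 and 4.24 RPKM in controls (0.88 ± 0.21, adjusted p = 0.00199). Kif1c, a transport kinesin, fell to 109, 109.6 and 83.5 RPKM at 7 days, against 203, 219 and 229 RPKM in controls (-1.11 ± 0.20, adjusted p = 0.000163).

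Kif16b, an endosome motor, was lower at each of the 4 times. Its 12 hour call was kept under 3 of 14 alternatives and its 24 hour call under 7 of 13. Both were lost with either scaling and without any 1 of the 3 controls, and the 12 hour call also with the GC correction and the column code. The 72 hour call was lost with A3278 as the only mouse of that group. It stood at 10.5, 11.7 and 10.6 RPKM at 72 hours (-0.75 ± 0.17, adjusted p = 0.00838) and 9.05, 10.4 and 9.48 RPKM at 7 days (-0.92 ± 0.17, adjusted p = 0.000192), against 18.9, 18.9 and 19.5 RPKM in controls. Kif21a, a regulator of microtubule growth, fell to 5.44, 6.59 and 4.78 RPKM at 7 days, against 9.98, 10.3 and 10.2 RPKM in controls (-0.76 ± 0.17, adjusted p = 0.00105). Kif13a and Kif26a were also lower at 7 days, at -1.06 ± 0.17, adjusted p = 5.11e-05 and -1.06 ± 0.24, adjusted p = 0.00115, and the call of Kif26a was lost with the column code.

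Among the 13 other Cdc genes tested, Cdc27 was higher at 7 days and Cdc34, Cdc37 and Cdc37l1 were lower. Of all genes tested, 26.7% were higher and 28.2% lower. Cdc27, a subunit of the anaphase-promoting complex, had 7.86, 10.5 and 12.2 RPKM at 7 days, against 3.35, 3.36 and 2.67 RPKM in controls (1.42 ± 0.25, adjusted p = 0.000143). It was already higher at 72 hours, with 5.24, 11.6 and 9.25 RPKM (1.18 ± 0.25, adjusted p = 0.00654), and both calls were lost with the column code. Cdc16 and Cdc23 of the same complex did not pass at 7 days, at 0.39 ± 0.18, adjusted p = 0.0768 and -0.15 ± 0.17, adjusted p = 0.477. Cdc37, which brings kinases to the chaperone Hsp90, fell to 63.4, 77.9 and 55.2 RPKM at 7 days, against 119, 144 and 150.4 RPKM in controls (-1.07 ± 0.22, adjusted p = 0.000562), a call lost with the column code. Cdc25b, a phosphatase that activates Cdk1, had 2.71, 3.88 and 3.3 RPKM at 7 days, against 1.55, 1.97 and 2.36 RPKM in controls, apart but not past the test (0.54 ± 0.23, adjusted p = 0.0592).

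The earlier times showed few members past the test. At 72 hours 7 members were higher (6.39% of the genes tested were) and 1 was lower (5.22%). They were Rrm2, Plk2, Cdc27, Mcm5, Mcm7, Plk4 and Cdc73, with Kif16b lower. Rrm2 and Plk2 passed under every alternative tried for that comparison. Without mouse A3278 15 members passed, 7 higher and 8 lower, and with it as the only 72 hour mouse 3 passed, all higher. Without any 1 of the 3 controls, A3281 or A3264, 4 passed.

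At 24 hours 5 members were higher (5.38% of the genes tested) and 6 lower (10.6%). The higher were Cdc73, Cdc27, Cenpc1, Pcna and Cdc2l1, and the lower Ccnd3, Cdk2, Cdk4, Plk3, Kif16b and Kif26a. Cdc73, a subunit of the Paf1 complex of transcription, had 15.9, 15.7 and 24.4 RPKM at 24 hours, against 8.27, 7.74 and 6.39 RPKM in controls (1.2 ± 0.22, adjusted p = 0.00784). That call was lost with the GC correction, at 0.42, and without control A3280. With median-ratio scaling the split was 8 higher and 4 lower, and with quantile scaling 7 and 4. No call was left in limma without control A3280 (14 members at an unadjusted p under 0.05), 1 without control A3259 or mouse A3262, and 5 without control A3250.

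At 12 hours 8 members were lower (12.7% of the genes tested) and none was higher in limma (0.524%). They were Ccnd2, Ccnd3, Cdkn1b, Cdkn2d, Cdc37, Kif13a, Kif16b and Kif26a. The median of the genes tested stood at -0.30 in that comparison, at -0.19 at 24 hours and at -0.10 at 72 hours, and the members' medians at -0.24, -0.10 and -0.03. With median-ratio or quantile scaling no member passed at 12 hours (16 at an unadjusted p under 0.05 with either). None passed without control A3259, control A3280 or mouse A3276, and 1 without control A3250 or mouse A3258.

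Between 7 days and 72 hours, 24 members were higher at 7 days (22.6% of the genes tested) and 9 lower (22.3%). Over all 118 members, 41 had all 3 mice labelled 7 days above those at 72 hours (21.8% of the table) and 17 below (20.6%). This is also the test of whether the 7 day effect differed from the 72 hour effect. Cdc2a had the highest difference, with 7.89, 6.73 and 3.27 RPKM at 7 days against 2.72, 0.82 and 1.07 RPKM at 72 hours (1.46 ± 0.35, adjusted p = 0.00276). Ccna2 (1.38 ± 0.28, adjusted p = 0.000715), Mcm6 (1.26 ± 0.20, adjusted p = 8.2e-05), Top2a (1.21 ± 0.22, adjusted p = 0.000322), Rrm1 (1.15 ± 0.19, adjusted p = 9.9e-05) and Pcna (0.93 ± 0.13, adjusted p = 3.09e-05) were also higher at 7 days. Rrm2 (-0.40 ± 0.26, adjusted p = 0.226), Plk2 (-0.09 ± 0.24, adjusted p = 0.776) and Plk4 (0.36 ± 0.24, adjusted p = 0.249) did not pass between these groups. Ccnb1, Ccna2, Cdc20, Cdc2a, Top2a, Mcm6, Rrm1, Pcna and Tyms passed here under every alternative tried, the column code included.

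A list of other cell cycle genes, chosen by role, held 87 genes, of which 77 were in the table and 50 were tested. At 7 days 28 were higher and 3 lower (median log2 difference 0.69), beside 26.7% and 28.2% of the genes tested. Among the higher, Anln, Cdt1, Ckap2, Foxm1, Nusap1 and Tpx2 reached the limit for the test through the mice labelled 7 days. The mean of each over the other groups together was under 1 RPKM, so the count and the median lean on the limit. At 72 hours 3 were higher and 3 lower, beside 6.39% and 5.22%, so that list stood at the background there. Foxm1, the transcription factor of mitotic genes, had 2.12, 3.05 and 2.25 RPKM at 7 days, against 0.52, 0.62 and 1.22 RPKM in controls (0.97 ± 0.22, adjusted p = 0.00142). Like Tpx2, it was tested only because the mice labelled 7 days were high. Mad2l1, a checkpoint protein (1.38 ± 0.21, adjusted p = 3.3e-05), Tpx2, a spindle factor (1.79 ± 0.28, adjusted p = 5.51e-05), and the condensin subunit Smc4 (2.11 ± 0.26, adjusted p = 4.65e-06) were also higher at 7 days. Dut, which breaks down dUTP, was lower (-1.26 ± 0.27, adjusted p = 0.00088), as were Rpa1 and Stmn1. Gtse1, a gene of G2 phase and mitosis and a p53 target, had 37.2, 25.9 and 24.2 RPKM at 72 hours and 3.44, 7.93 and 1.26 RPKM at 7 days, against 0.39, 0.16 and 0.51 RPKM in controls (4.46 ± 0.34, adjusted p = 4.54e-07 at 72 hours).

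Markers of other cell types moved with the 7 day result. The counts stand beside 26.7% of all genes tested higher and 28.2% lower at 7 days. All 10 macrophage markers in the table were higher at 7 days, and their summed RPKM was 721 to 1056 in the mice labelled 7 days, against 98.6 to 129.5 in controls. Fcgr1 among them reached the limit for the test through the mice labelled 7 days, as its mean over the other groups together was under 1 RPKM. Of 7 fibroblast markers 6 were higher, with sums of 1978 to 2653 against 509 to 591. Of 8 heart muscle markers 7 were lower, with sums of 11149 to 12642 against 44492 to 46406. At 72 hours none of the 10 macrophage markers passed in limma, with sums of 101 to 184, where 6.39% of the genes tested were higher and 5.22% lower.

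The 3 neutrophil markers tested were higher at 7 days (26.7% of the genes tested), with sums of 20.7 to 28.2 against 0.62 to 2.56, though Mpo was at 0 in all mice but A3345. S100a8 and Csf3r reached the limit for the test through the mice labelled 7 days. Over the other groups together the mean of each was under 1 RPKM. Among T cell markers Cd3e was high, with 13.7, 13.2 and 6.76 RPKM at 7 days, against 0.1, 0.57 and 0.25 RPKM in controls, while Cd3d, Cd3g and Cd2 stood at 0 to 0.62 RPKM. The B cell markers summed to 0.57 to 0.85 at 7 days against 0.7 to 0.87 in controls. Of 6 endothelial markers 4 were lower (28.2% of the genes tested), with sums of 140.3 to 169 against 195 to 209.9. The 5 mural cell markers, 3 higher (26.7%) and 1 lower (28.2%), summed to 223 to 299 against 179 to 250.2. The 4 red cell markers, 3 of them tested and lower (28.2% of the genes tested), summed to 103 to 686 against 1920 to 3223, and the 3 atrial markers to 28.6 to 46.5 against 65.3 to 78.7. At 72 hours the atrial sums were 12.1, 13.9 and 67. Myl7, 1 of these markers, was at 18.4 RPKM in A3278 beside 2.46 and 1.8 in the other mice of that group. The part of these cells in the changes of the division genes was not tested.

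**Figure D5:**
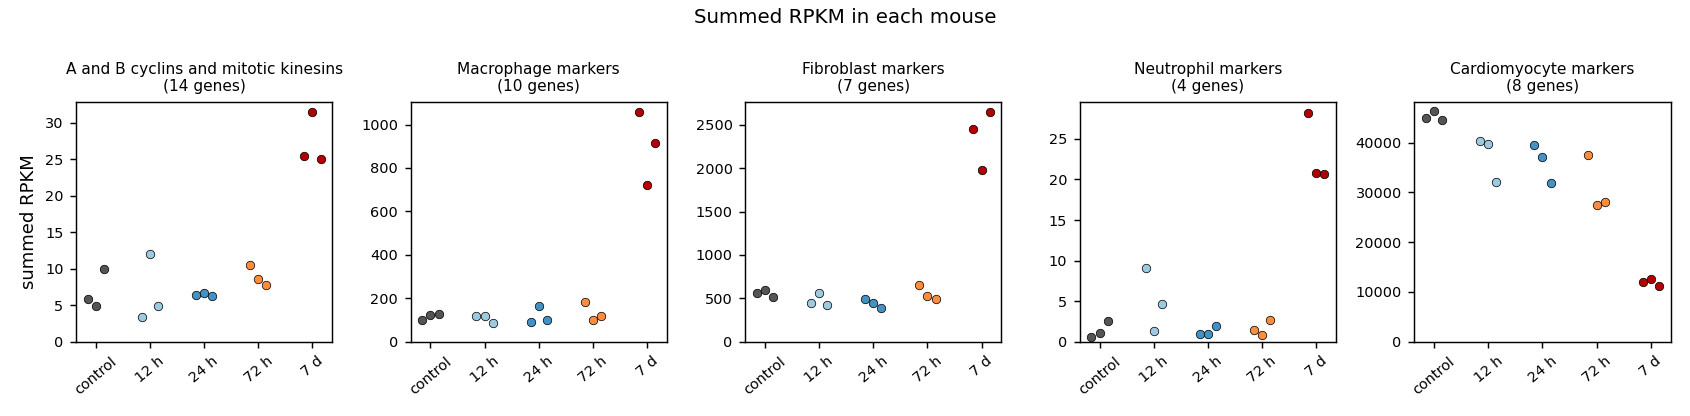
Summed RPKM in each of the 15 mice of the 14 A and B type cyclins and mitotic kinesins, and of 4 lists of cell type markers, by group. In the mice labelled 7 days the cyclin and kinesin sum (25 to 31.4), the macrophage sum (721 to 1056) and the fibroblast sum lie above all other mice, and the heart muscle sum (11149 to 12642) lies below them.

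Promoter windows are shown for 3 mitotic genes that were high at 7 days and whose windows held 2 or more CHR matches, for Mcm6 as a helicase gene, and for Rrm2 and Plk2, which were high from 72 hours. They run from 250 bases before to 50 after the transcript start, 5′ to 3′ on the strand of the gene, from RefSeq on the build GRCm38.p6. Capitals mark, on either strand, the cell cycle genes homology region (CHR) TTTGAA or TTCGAA, the CCAAT box CCAAT, and the E2F motifs TTTCCCGC, TTTCGCGC, TTTGCCGC and TTTGGCGC, which may overlap.
Cdc2a (Cdk1), chr10:69352863-69353162, minus strand: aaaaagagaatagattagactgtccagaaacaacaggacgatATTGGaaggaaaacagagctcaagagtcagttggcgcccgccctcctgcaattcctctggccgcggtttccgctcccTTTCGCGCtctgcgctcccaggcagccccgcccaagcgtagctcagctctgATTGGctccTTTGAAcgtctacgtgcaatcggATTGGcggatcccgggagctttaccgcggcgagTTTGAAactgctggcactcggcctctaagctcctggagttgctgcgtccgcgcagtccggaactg
Ccnb2, chr9:70421505-70421804, minus strand: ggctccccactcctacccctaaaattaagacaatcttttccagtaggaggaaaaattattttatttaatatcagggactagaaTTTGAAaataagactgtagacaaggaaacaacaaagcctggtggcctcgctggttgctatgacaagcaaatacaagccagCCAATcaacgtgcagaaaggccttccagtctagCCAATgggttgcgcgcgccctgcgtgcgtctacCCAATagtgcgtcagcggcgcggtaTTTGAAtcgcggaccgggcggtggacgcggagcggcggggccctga
Top2a, chr11:99024140-99024439, minus strand: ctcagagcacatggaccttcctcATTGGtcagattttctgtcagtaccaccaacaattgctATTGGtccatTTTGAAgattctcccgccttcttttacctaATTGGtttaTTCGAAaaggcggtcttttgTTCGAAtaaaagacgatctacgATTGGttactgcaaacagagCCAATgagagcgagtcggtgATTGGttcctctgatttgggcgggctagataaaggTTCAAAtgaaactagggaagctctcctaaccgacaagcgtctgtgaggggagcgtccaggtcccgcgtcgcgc
Mcm6, chr1:128359656-128359955, minus strand: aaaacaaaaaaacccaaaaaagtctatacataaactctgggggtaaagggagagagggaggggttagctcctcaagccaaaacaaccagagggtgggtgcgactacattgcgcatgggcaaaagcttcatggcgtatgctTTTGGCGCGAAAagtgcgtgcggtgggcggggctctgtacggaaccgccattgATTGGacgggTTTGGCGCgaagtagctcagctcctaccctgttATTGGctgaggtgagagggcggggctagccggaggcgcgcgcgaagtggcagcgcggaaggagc
Rrm2, chr12:24708004-24708303, plus strand: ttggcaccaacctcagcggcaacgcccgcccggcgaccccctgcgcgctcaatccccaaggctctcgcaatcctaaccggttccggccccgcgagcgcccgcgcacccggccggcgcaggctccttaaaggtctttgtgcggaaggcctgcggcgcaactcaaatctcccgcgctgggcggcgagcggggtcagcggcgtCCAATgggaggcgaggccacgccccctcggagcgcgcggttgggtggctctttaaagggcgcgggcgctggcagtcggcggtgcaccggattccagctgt
Plk2, chr13:110394794-110395093, plus strand: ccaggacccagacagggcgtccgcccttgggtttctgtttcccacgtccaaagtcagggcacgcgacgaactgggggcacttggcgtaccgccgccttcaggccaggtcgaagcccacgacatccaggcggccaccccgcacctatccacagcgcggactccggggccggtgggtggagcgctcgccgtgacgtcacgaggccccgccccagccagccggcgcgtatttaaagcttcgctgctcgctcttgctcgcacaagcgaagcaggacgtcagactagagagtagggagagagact

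The window of Cdc2a held 2 CHR, 3 CCAAT and 1 E2F match, that of Ccnb2 2 CHR and 3 CCAAT, and that of Top2a 4 CHR and 6 CCAAT. The window of Mcm6 held 3 E2F and 2 CCAAT matches, that of Rrm2 held 1 CCAAT match, and that of Plk2 held no match. Among other genes high at 7 days, Cdc20 and Plk1 had 1 CHR match each in their windows, while Ccnb1, Birc5, Rrm1 and Pcna had no CHR and no E2F match. Among 114 windows of the 100 members with an entry, 30.7% held a CHR match, 55.3% a CCAAT box and 12.3% an E2F match. Among 11161 windows of the tested genes those shares were 13.5%, 37.6% and 3.81%. Among 27 windows of the members that passed as higher at 7 days they were 18.5%, 66.7% and 14.8%, and among 13 windows of those lower 15.4%, 30.8% and 0%. A match is a run of letters and no evidence of binding. In the files' own build, mm9, these genes lie at chr10:68799383-68815686 (Cdc2a), chr9:70255496-70269361 (Ccnb2), chr11:98854257-98885503 (Top2a), chr1:130228168-130256233 (Mcm6), chr12:25393106-25399011 (Rrm2) and chr13:111185252-111191052 (Plk2).

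Limits of the gene models touch some members. Of 67 named members, 22 had another place in the genome with at least 300 bases at 90% identity or more. Among them were Ccnb1 (6 places, the best at 98%), Tyms (4 places), Pcna (1 place, at 99.3%), Rrm2, Ccnb2, Cdc20, Plk1, Birc5, Mcm7 and Ccnd3, so reads may be split or shared there. Exons of a gene on the other strand overlap, among others, 21.3% of Ccnd1, 14.6% of Ccna2, 17.4% of Ccne2, 18.6% of Cdk4 and 15.7% of Ccnd3. Across the 80 members, the log2 difference and GC content had a Spearman correlation of -0.58 for the 12 hour comparison, -0.55 for 24 hours, -0.41 for 72 hours and -0.37 for 7 days, as a description over genes that share libraries. Over all genes tested the same values were -0.57, -0.58, -0.36 and -0.37.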

How the data were processed

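Polyadenylated ventricle RNA was sequenced in paired ends from 15 mice, 3 in each of 5 groups taken from the labels. The authors deposited 1 table of RPKM values for 16042 genes in 20 columns. The alignment used TopHat and Bowtie on mm9, per the submitters' processing notes, and no source used here gives their versions, the counting tool or the strandedness. The 2 columns of 5 mice were averaged. Read depth was estimated from the step between values of 98 olfactory receptor genes, and 30 of 30 simulated columns came within 5% of the truth. Counts were not recovered and no count model was run.

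Values were taken as log2(RPKM + 1). Genes with a mean of at least 1 RPKM (10868) entered 1 limma fit (3.58.1, R 4.3.3, eBayes with trend) of all 15 mice, with 10 residual and 7.12 prior degrees of freedom. P was adjusted by Benjamini and Hochberg over all genes of a comparison, with a threshold of 0.05, and ± beside a log2 difference is the standard error of that fit. The fit was tested on simulated data. Labels do not say whether mice shared a litter or cage, so p measures the spread between these mice.

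The members and lists were chosen with earlier results of these data known. Named members are those past the threshold with groups apart, up to 10 in each direction at 72 hours, 7 days and 7 days against 72 hours and up to 5 at 12 and 24 hours, with up to 3 of each role by F test p and a list of core genes. Members outside that rule are named to complete a count or group, after their values were seen. Alternatives were a pseudocount of 0.1, no filter, median-ratio and quantile scaling, the compared groups alone, the first column of each mouse, a lowess correction for GC content (span 0.3), a fit of single columns that models the column code and correlates columns of a mouse (16 columns, correlation 0.283, without the 24 hour group), and leaving out each mouse. The use of A3278 alone at 72 hours was added after the data were seen. Copies were searched with minimap2 on mm9, and overlapping exons with the vM1 annotation of GENCODE.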

Additional observations from a re-analysis of the deposited data

Results flagged for a closer look

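The effects at 7 days and at 72 hours differed for 33 members by the limma test of the difference itself, 24 higher at 7 days, beside 22.6% of the genes tested, and 9 lower, beside 22.3%. The highest and the lowest of these differences with groups apart were Cdc2a, at 1.46, and Kif21a (-1.05 ± 0.17, adjusted p = 8.34e-05). Kif21a had 5.44, 6.59 and 4.78 RPKM at 7 days, against 11.51, 15.7 and 11 RPKM at 72 hours, and its log2 difference from control was -0.76 at 7 days and 0.29 at 72 hours.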

How the results depend on the processing

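The counts of members called at 12 hours (8 as reported) were 5 without the filter, 0 with median-ratio scaling, quantile scaling, the GC correction or the column code (16, 16, 16 and 3 at an unadjusted p under 0.05 in limma), 16 with the 2 groups alone, 3 with the first column of each mouse, and 0 to 9 leaving out a mouse. At 24 hours (11) the GC correction gave 5 and leaving out a mouse 0 to 9. At 72 hours (8) the 2 groups alone and the first column gave 5 each, A3278 alone gave 3, and leaving out a mouse 4 to 15; the higher and lower calls were 6 and 2 with quantile scaling, against 7 and 1. At 7 days (46) the column code gave 26, and leaving out a mouse 40 to 47. At 7 days against 72 hours (33) the range was 26 to 33, and for the F test over 5 groups (59) 53 to 61. The other counts stayed within 1.5 times. Reversed, in the sense of a changed sign with an adjusted p under 0.05 in at least 1 of the 2 fits, were Cdc73 at 7 days with the GC correction (-0.68, past the threshold) and Cdk4 at 7 days with the column code (0.17, not past it). The cause was not tested. In a further 265 alternative values of named members the sign changed with neither fit past the threshold, as for Ccnd1 at 7 days (-0.83 to 0.35). Of 40 named calls at 7 days, 19 passed under every alternative and 23 with the column code. Over the named members, 3564 alternative values kept their side of the threshold, 277 fell below it and 77 rose past it. No paired analysis was possible because no mouse number is shared between groups. Depth limits short genes near 1 RPKM.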
